A study of Mus musculus with 15 samples.

Results

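The 10 genes described here encode transporters and tight junction proteins of the blood-brain barrier, and were taken by symbol from the 26145 genes listed in the deposited count files: Slc2a1, Mfsd2a, Abcb1a, Abcg2, Slco1c1, Slco1a4, Slc16a1, Slc7a5, Cldn5 and Ocln. All 10 were found, and all 10 passed the filter on low counts in the endothelial class. Single-cell RNA sequencing of the mouse prefrontal cortex (PFC) gave 15 libraries, 12 from adult mice and 3 from mice at postnatal day 21 (P21). All mice were male C57BL/6N, and the study's methods give 2 pooled mice per replicate. The adult mice, called P60 in the study and 8 to 10 weeks old in the labels, had self-administered cocaine or saline intravenously. They were taken during the maintenance phase (libraries 1 and 4 for cocaine, 2 and 3 for saline), 48 h into withdrawal (6 and 8 for cocaine, 5 and 7 for saline) or 15 days into withdrawal (9 and 10 for cocaine, 11 and 12 for saline). The P21 mice had no self-administration, so that age and this procedure cannot be told apart between P21 and the saline P60 libraries. The methods give 4 mice in all for P21, and how they were divided among the 3 P21 libraries is not given in the sources used here. These libraries may therefore share mice or be of single mice, and were tested as 3 separate samples. The labels carry a tag for the nucleus accumbens beside titles and sources that name the PFC.

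Endothelial cells of brain capillaries are joined by continuous tight junctions and take up little by vesicles, so that most nutrients cross by carriers and many drugs are returned to the blood by pumps. Slc2a1 (GLUT1) carries glucose, Slc16a1 (MCT1) carries lactate and ketone bodies, and Slc7a5 (LAT1) carries large neutral amino acids. Mfsd2a carries lysophosphatidylcholine with docosahexaenoic acid and is known to hold back vesicle transport. Slco1c1 (OATP1C1) carries thyroxine and Slco1a4 (OATP1A4) carries other organic anions. Abcb1a (P-glycoprotein) and Abcg2 (breast cancer resistance protein) are ATP-driven efflux pumps of the luminal membrane. Cldn5 (claudin-5) and Ocln (occludin) are membrane proteins of the tight junction.

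In NCBIM37, the mouse build of the authors' alignment (mm9), 3 transporter genes lie on chromosome 6: Abcg2 at chr6:58534517-58642863 and Slco1c1 at chr6:141472907-141518241 on the plus strand, and Slco1a4 at chr6:141753961-141804720 on the minus strand. Slc2a1 (chr4:118781316-118809935, plus) and Mfsd2a (chr4:122624093-122638431, minus) share chromosome 4. Abcb1a lies at chr5:8660077-8748575 (plus), Slc16a1 at chr3:104442591-104462385 (plus) and Slc7a5 at chr8:124405052-124431594 (minus). Of the junction genes, Ocln lies at chr13:101266462-101322673 (minus), and Cldn5 at chr16:18776940-18778353 (plus) has a single exon in the annotation. Reads start near the 3′ end of a transcript, and the last 400 bases of Slco1a4 matched Slco1a5 over 401 aligned positions at 90.8% identity, so that reads between them could be shared. The last 400 bases of Ocln held a shorter stretch that matched other genes, over 90 positions at 91.1% identity for the longest match. Slco1a5 stood at 0.84 CPM in Endo cells, CPM being the UMIs (unique molecular identifiers, which count molecules) of a gene scaled to a common total per library. The P-glycoprotein paralog Abcb1b stood at 1.20 CPM. Gm12868, which overlaps the 3′ end of Slc2a1 on the other strand, stood at 0.25 CPM.

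The 250 bases before the start of 4 members are shown, chosen by how their levels differed between P21 and P60. In Endo cells Slc2a1 and Abcb1a were higher at P60, Slc16a1 was lower, and Mfsd2a did not pass the test given below. Mfsd2a had its largest fitted difference in oligodendrocyte precursors, from 18 UMIs and 1 UMI at P21, which is a description of the counts. Sequences are from RefSeq on GRCm38.p6, read 5′ to 3′ on the gene's strand: Slc2a1 at chr4:119108495-119108744 (plus), Abcb1a at chr5:8566841-8567090 (plus), Slc16a1 at chr3:104638414-104638663 (plus) and Mfsd2a at chr4:122961189-122961438 (minus). Capitals mark the core letters of the TCF/LEF factors of Wnt signalling (CTTTGA or TCAAAG) and of hypoxia-inducible factors (ACGTG or CACGT, which overlap where ACGTG and CACGT share letters).
Slc2a1: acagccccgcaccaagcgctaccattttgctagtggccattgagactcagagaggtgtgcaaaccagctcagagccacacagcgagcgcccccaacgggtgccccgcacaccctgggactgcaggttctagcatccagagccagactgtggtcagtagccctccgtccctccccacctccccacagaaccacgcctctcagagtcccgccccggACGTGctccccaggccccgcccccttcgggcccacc
Abcb1a: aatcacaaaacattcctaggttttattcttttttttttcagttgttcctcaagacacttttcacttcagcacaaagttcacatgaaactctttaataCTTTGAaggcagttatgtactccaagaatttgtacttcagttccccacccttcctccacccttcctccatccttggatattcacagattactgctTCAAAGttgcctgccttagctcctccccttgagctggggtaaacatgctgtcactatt
Slc16a1: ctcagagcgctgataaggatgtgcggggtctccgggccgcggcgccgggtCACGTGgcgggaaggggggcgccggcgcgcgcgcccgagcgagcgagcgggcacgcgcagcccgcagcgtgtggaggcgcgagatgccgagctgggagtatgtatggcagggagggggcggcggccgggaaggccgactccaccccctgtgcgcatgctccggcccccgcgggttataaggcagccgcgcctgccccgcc
Mfsd2a: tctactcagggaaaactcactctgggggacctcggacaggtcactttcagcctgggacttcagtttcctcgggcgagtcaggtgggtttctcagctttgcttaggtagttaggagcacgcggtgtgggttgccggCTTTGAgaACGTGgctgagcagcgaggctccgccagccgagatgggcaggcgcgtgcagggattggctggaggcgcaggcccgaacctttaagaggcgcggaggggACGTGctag
The TCF/LEF letters were found on either strand before Abcb1a and Mfsd2a, and in 13.8% of 32851 promoter windows of this length. The hypoxia letters were found before Slc2a1, Slc16a1 and Mfsd2a, and in 16.6% of all windows. Another search, for the ETS core CCGGAAG or CTTCCGG, found no member and 6.91% of all windows. RefSeq windows were matched for 9 of the 10 members, with 12 start sites between them. A match is a run of letters and not a site shown to be bound.

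The deposited annotation holds 35360 retained cells, 24822 at P60 and 10538 at P21, in 8 classes. A library held 1055 to 4439 retained cells and 8375172 to 42892922 UMIs, and 192 to 708 of its cells were of the class Endo (3566 cells at P60 and 2047 at P21). The median Endo cell had 3353.5 to 5095 UMIs. No pair of libraries shared more than 27 cell barcodes. The label Endo was borne out by the endothelial markers Flt1, Pecam1, Cdh5 and others, whose 12 levels summed to 14866 to 22057 CPM in P60 libraries, but the class was not endothelial RNA alone. Pericyte (mural) markers summed to 5970 to 9361 CPM and red cell genes to 40377 to 89796 CPM, and 61.4% of P60 Endo cells had 20 or more UMIs of the mural list. Library 8 (cocaine, 48 h) stood apart: Lcn2 was at 4830 CPM in its Endo cells and at 2.55 to 196 CPM in the other P60 libraries.

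At P60, 9 of the 10 genes had their highest mean level in Endo, and the exception was Mfsd2a. A level is a mean ± SD of CPM, and libraries with fewer than 10 cells of a class do not enter it. The classes were made by clustering the same cells, so that Endo against other classes is a description without a test. In Endo the carriers stood at 2059 ± 435 (Slc2a1), 201 ± 63.7 (Slc16a1), 506 ± 95.9 (Slc7a5) and 245 ± 45.8 CPM (Mfsd2a; SD, n = 12 each). The organic anion carriers stood at 821 ± 113 (Slco1c1) and 1368 ± 295 CPM (Slco1a4). The pumps stood at 666 ± 116 (Abcb1a) and 986 ± 196 CPM (Abcg2), and the junction genes at 2196 ± 966 (Cldn5) and 220 ± 40.1 CPM (Ocln). Together the 10 genes made 6792 to 11682 CPM of a library's Endo sum.

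For 8 genes no Endo library overlapped the next class. The mean in Endo was 146 times that of the next class for Abcb1a, 93.7 times for Cldn5, 92.0 times for Ocln and 67.9 times for Slco1a4. The ratio was smaller for Slc7a5 (15.4), Slc2a1 (14.7), Abcg2 (11.9) and Slc16a1 (7.51). The next class was astrocytes for Slc2a1 (140 ± 25.3 CPM, n = 11), closely followed by oligodendrocytes (134 ± 28.6 CPM, n = 12), and these neighbours overlapped. It was oligodendrocyte precursors (OPC) for Abcg2 (83.0 ± 30.4 CPM, n = 11), oligodendrocytes for Slc16a1 (26.8 ± 9.84 CPM, n = 12), and inhibitory neurons for Slc7a5 (32.8 ± 8.90 CPM, n = 12).

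**Figure D1:**
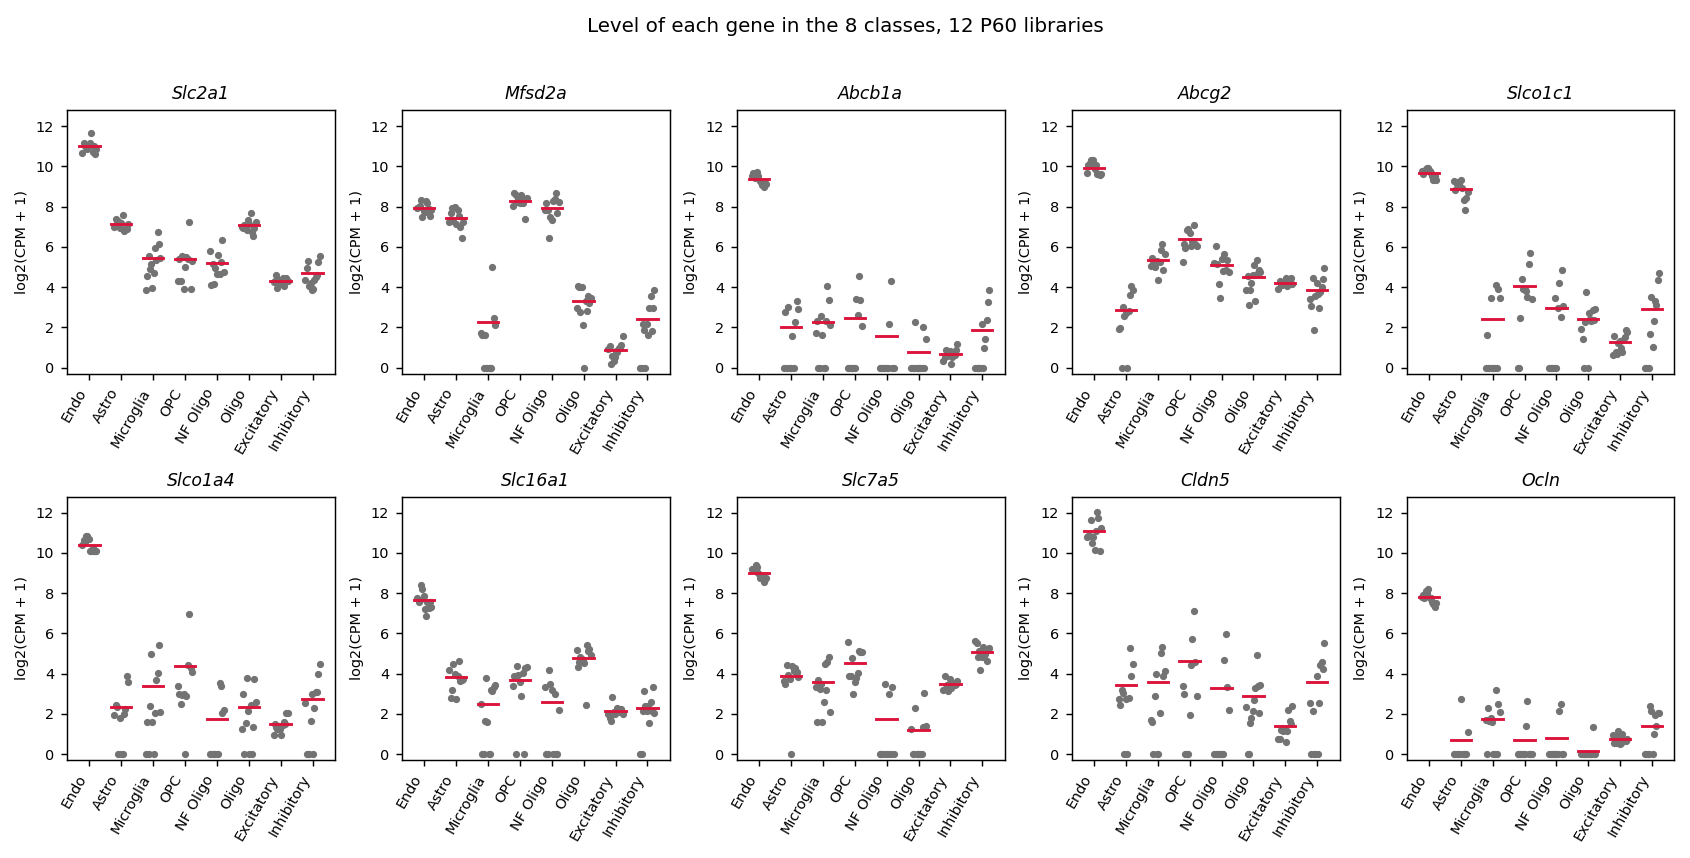
Level of each gene (panels) in the deposited classes at P60, drawn from the CPM of each library. Points are libraries (10 or more cells of the class) and a line marks their mean. Mfsd2a reaches 315 CPM in OPC and Slco1c1 477 CPM in astrocytes, while the other genes stand well above every other class in Endo.

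The thyroxine carrier Slco1c1 was shared between Endo and astrocytes, at 477 ± 137 CPM in the latter (n = 11). Endo was higher in 11 of the 11 libraries with both classes, although the ranges over libraries overlapped, and the next class, OPC, stood at 15.5 CPM. The lipid carrier Mfsd2a was ordered differently from all the others. OPC had 315 ± 66.3 CPM, newly formed oligodendrocytes (NF Oligo) 248 ± 91.0 CPM, Endo 245 ± 45.8 CPM and astrocytes 175 ± 52.6 CPM (n = 11, 11, 12 and 11). Neighbours in this order overlapped: OPC exceeded NF Oligo in 8 of 11 libraries, NF Oligo exceeded Endo in 6 of 11, and Endo exceeded astrocytes in 10 of 11.

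Free RNA from endothelial cells can place UMIs in droplets of other cells, and would carry all endothelial genes there in 1 ratio. The level of each gene in a class was therefore set against the highest such ratio among the 12 endothelial markers of the same library. The markers were not in 1 ratio themselves: in excitatory neurons at P60 their median stood at 0.138% and the highest at 5.29%. A gene below the highest marker is therefore not placed with endothelial RNA by this comparison. In astrocytes the median marker stood at 0.289% of its Endo level and the highest at 1.57%, against 72.0% for Mfsd2a, 57.6% for Slco1c1, 7.04% for Slc16a1 and 6.88% for Slc2a1, each above the highest marker in 11 of 11 P60 libraries. Slc7a5 was above it in 10 of 11. At P21, where cells of Endo clusters were among the astrocytes, the median marker stood at 7.56% and the highest at 15.6%. Mfsd2a and Slco1c1 were above the highest in 3 of 3 P21 libraries, and Slc2a1, Slc16a1 and Slc7a5 in 1 of 3. In OPC at P60, Mfsd2a (131%) and Abcg2 (8.79%) were above every marker in 11 of 11 libraries, and in NF Oligo so were Mfsd2a (101%) and Abcg2 (3.66%). In oligodendrocytes Slc16a1 (13.9%) and Slc2a1 (6.56%) were each above every marker in 11 of 12 libraries, and Mfsd2a (3.73%) in 9 of 12. In inhibitory neurons Slc7a5 (6.66%) was above in 11 of 12. At P60 Cldn5, Ocln, Abcb1a and Slco1a4 exceeded the markers in at most 1 library of any class, and their low counts outside Endo were not told apart from endothelial RNA.

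The same division was seen cell by cell. Of saline P60 Endo cells, 98.2% had a UMI of Slc2a1 and 95.6% of Slco1a4, and the lowest shares were 55.4% for Ocln, 55.3% for Mfsd2a and 44.5% for Slc16a1. After each cell was thinned to 2000 UMIs, these shares were 95.4%, 88.1%, 33.7%, 35.3% and 27.7%. Excitatory neurons, thinned alike, held a UMI of a given gene in 0.07% to 3.7% of cells. Of saline OPC, 61.0% had a UMI of Mfsd2a (44.2% after thinning), and of saline astrocytes 74.1% had a UMI of Slco1c1 (60.2% after thinning). The median Endo cell had UMIs of 8 of the 10 genes, and after thinning of 7 at P60 and 6 at P21.

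Over the 93 sums of a class in a P60 library, the 3 genes with levels most like each member by Pearson correlation of log2(CPM + 1) were listed. These sums share libraries and cell types, so the coefficients describe likeness and carry no test. Flt1 and Gpr116 were among the closest 3 genes to Slco1a4 (0.94 for Gpr116), Eltd1 was the closest to Abcb1a (0.95), Ly6c1 to Cldn5 (0.93) and Lamc3 to Ocln (0.95). The closest gene to Slc2a1 and to Slc16a1 was Ctnna1 (0.89 and 0.81), and that to Abcg2 was Itm2a (0.89). The closest to Slco1c1 was Rarres2 (0.92) and to Slc7a5 it was Utrn (0.87). Mfsd2a was closest to Timp3 (0.91), Tril and Sash1.

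Within Endo the deposited annotation names 13 clusters at P60, and the 10 genes differed 2.19-fold to 6.04-fold between the highest and the lowest cluster mean. These clusters were also made from the same counts, so that the values describe them. Endo_7, whose endothelial markers summed to 21871 CPM, had the highest level of 6 genes: Slc2a1 (2607 CPM), Abcg2 (1311), Slco1c1 (1126), Slco1a4 (1872), Slc7a5 (713) and Ocln (315). Its mural markers summed to 1788 CPM, the lowest of the 13 clusters, against up to 14457 CPM (Endo_5). The part of mural RNA in the order of clusters was not tested. Endo_2, led by the smooth muscle genes Acta2, Tagln and Myh11, had the lowest level of Mfsd2a (94.0 CPM), Abcg2 (453), Slco1a4 (747), Slc16a1 (50.6), Slc7a5 (198) and Cldn5 (1184). Smooth muscle markers summed to 3257 CPM in Endo_2. The arterial list given below summed to 2689 CPM there, the highest of the 13 clusters, against 2308 CPM in Endo_1. Endo_13, led by haemoglobin genes, was lowest for the remaining 4, but red cell genes made 47.0% of its UMIs, against 1.34% to 4.87% in the other clusters. With red cell genes left out of the totals, Endo_13 was lowest for 0 of the 10 genes, Endo_2 for 9 and Endo_3 for Slc2a1 (1556 CPM), and the folds between highest and lowest cluster ran from 1.74 (Slc2a1) to 6.09 (Slc16a1). Endo_8, which had Vcam1 and Icam1 among its leading genes, was highest for Abcb1a (913 CPM), Slc16a1 (306) and Cldn5 (3158).

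**Figure D2:**
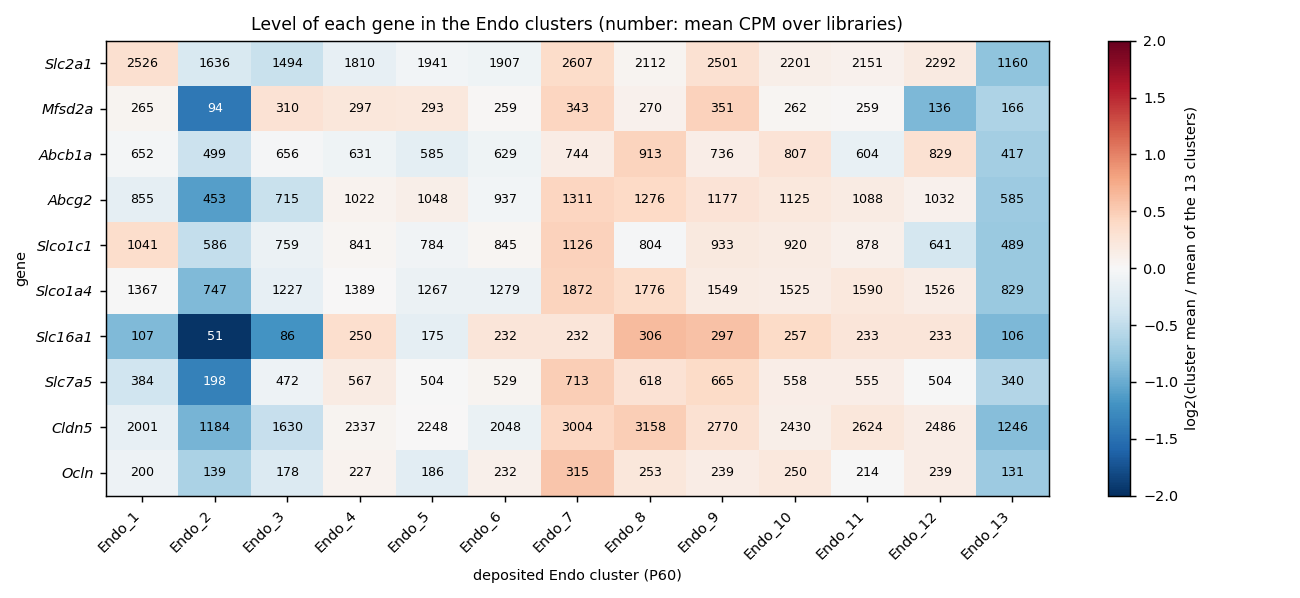
Level of each gene in the 13 Endo clusters at P60, as the mean CPM over libraries, each with 10 or more cells of the cluster. Slc16a1 spans 50.6 CPM in Endo_2 to 306 CPM in Endo_8, the widest range of the 10 genes in fold. Red cell genes made 47.0% of the UMIs of Endo_13 and are part of the totals here.

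Endo cells were marked by a venous and an arterial list and compared. The venous list was Slc38a5, Nr2f2, Vwf, Vcam1, Lcn2, Icam1 and Il1r1. The arterial list was Bmx, Gkn3, Sema3g, Efnb2, Hey1, Fbln5, Clu and Alpl. Venous-marked cells had at least 2 UMIs of the venous list and none of the arterial list, and arterial-marked cells the reverse. The 12 P60 libraries gave 1149 venous-marked and 318 arterial-marked cells, of 3566 Endo cells, and each library was compared with itself. No list of capillary genes was used. Either kind may therefore hold capillary cells, and a difference between them does not place a gene in veins. Of 3914 genes tested, 8.89% were called (4.5% higher and 4.39% lower in venous-marked cells), that is, passed an adjusted p of 0.05 in edgeR's quasi-likelihood test and a change of 1.5-fold. Slc16a1 and Cldn5 were called, both higher in venous-marked cells. Slc16a1 stood at 150 to 415 CPM in venous-marked and 15.0 to 287 CPM in arterial-marked cells, and was higher in the venous-marked cells of 12 of 12 libraries (285 ± 79.1 against 85.2 ± 78.4 CPM, log2 difference 1.93 ± 0.22 SE, adjusted p = 7.38e-07). Cldn5 stood at 1528 to 5610 and 764 to 2704 CPM and was higher in 12 of 12 libraries (log2 difference 0.65 ± 0.07 SE, adjusted p = 7.00e-11).

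The pumps, the organic anion carrier Slco1a4 and the amino acid carrier differed in the same direction by less than 1.5-fold. Log2 differences were 0.48 for Abcb1a, 0.52 for Abcg2 and 0.56 for Slco1a4, each higher in 12 of 12 libraries, and 0.57 for Slc7a5, higher in 11 of 12 (adjusted p from 1.30e-08 to 6.28e-05). Ocln differed by 0.44 (adjusted p = 0.0059). Such calls on the adjusted p alone made 16.5% of all genes. Slc2a1 showed no difference of this kind, at -0.09 on the log2 scale (95% confidence interval -0.23 to 0.06; higher in venous-marked cells of 4 of 12 libraries), nor did Slco1c1 (-0.07, interval -0.22 to 0.08) or Mfsd2a (0.05, interval -0.17 to 0.28). The intervals for Slc2a1, Slco1c1 and Mfsd2a lay below a 1.5-fold difference. Without the filter on low counts, which changed the scaling, Abcb1a (0.69), Abcg2 (0.74), Slco1a4 (0.77), Slc7a5 (0.78) and Ocln (0.65) passed 1.5-fold as well, and Slc2a1 and Slco1c1 stood at 0.13 and 0.14. Without library 1, Slco1a4 (0.59) and Slc7a5 (0.66) were called too. Ackr1, an eighth gene of the venous list, is listed in the files as Darc and marked no cell. With Darc added, Slc16a1 (1.91) and Cldn5 (0.62) were again the only members called.

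**Figure D3:**
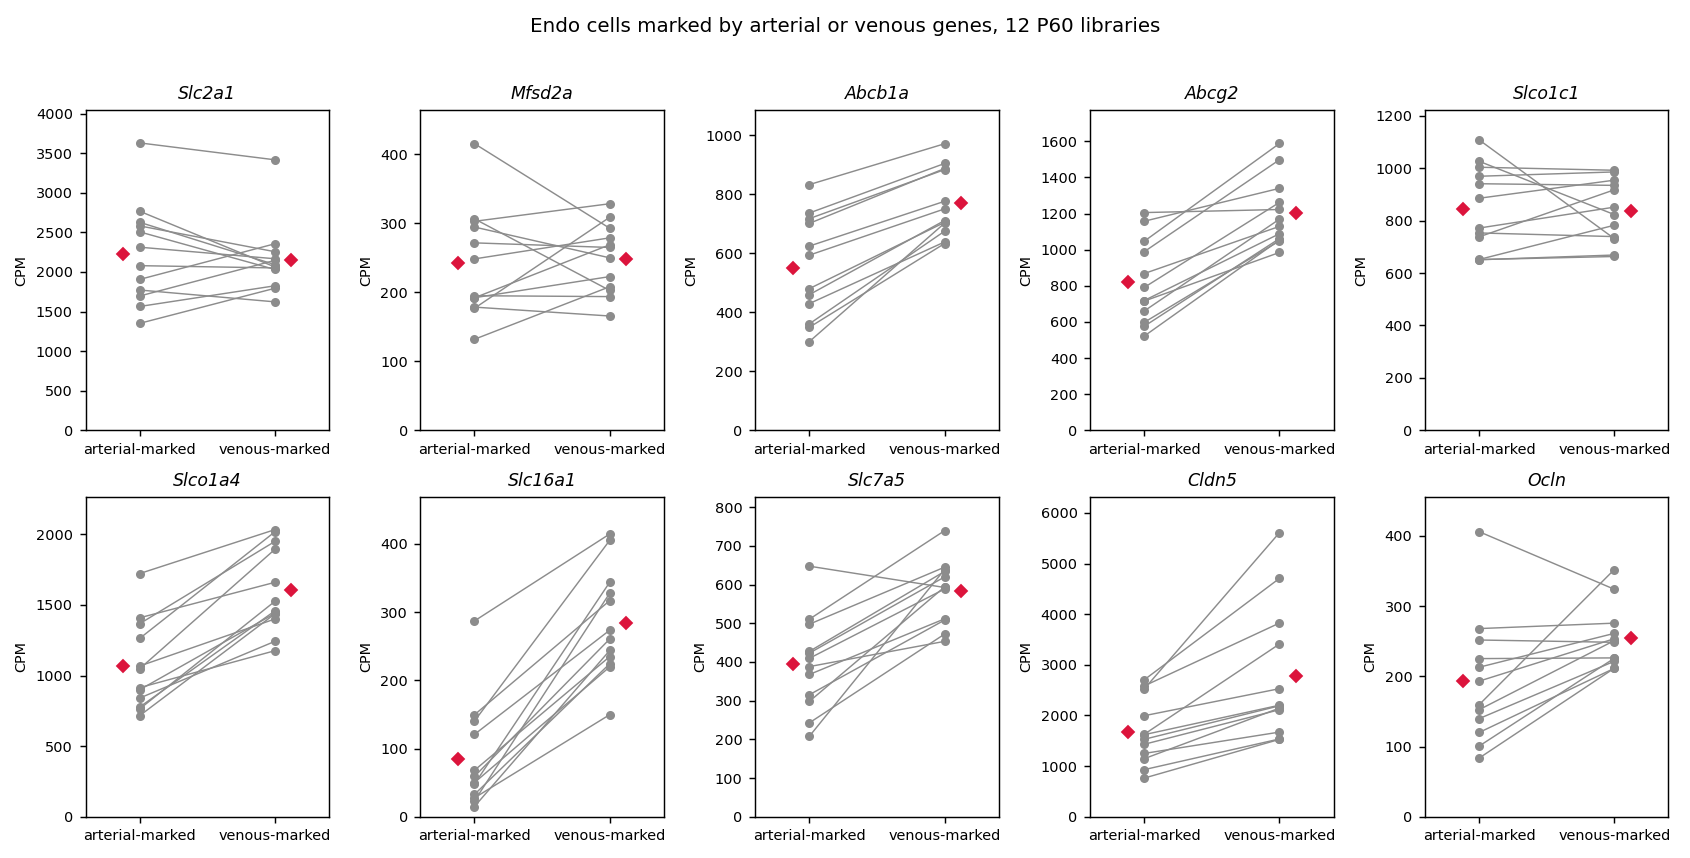
CPM of each gene in arterial-marked and venous-marked Endo cells of the 12 P60 libraries; a line joins the 2 values of a library and the diamonds are means. All 12 lines rise for Slc16a1, Cldn5, Abcb1a, Abcg2 and Slco1a4, and lines cross in both directions for Slc2a1, Slco1c1 and Mfsd2a.

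Other barrier genes were counted by the same test. Of 17 genes tested on a list of other transporters, which also holds the enzyme Car4, 8 were higher in venous-marked cells and 0 lower. Car4 (carbonic anhydrase 4; 2.17) and Slc39a8 (zinc and manganese; 2.05) differed most, followed by Slc40a1 (iron export; 1.46), Slco2b1 (organic anions; 1.06), Slc22a8 (organic anions; 1.04), Slc7a1 (cationic amino acids; 0.97), Slc38a3 (glutamine; 0.81) and Slc3a2 (the heavy chain that pairs with Slc7a5; 0.78). Of 9 receptors and vesicle genes, Cav2, Igf1r, Insr and Tfrc (transferrin receptor) were higher and Lrp1 was lower. One of 15 other junction genes (Jam2) and 1 of 17 Wnt pathway genes and factors (Nkd1) were higher. Of the 12 endothelial markers, Kdr (0.92) was higher and Ly6c1 (-0.60) was lower. The 2 kinds of cell also differed in their neighbours' RNA: the smooth muscle list had a median sum of 716 CPM in venous-marked and 1038 CPM in arterial-marked cells, and the mural list had 7710 and 7394 CPM. Of 9 mural genes tested, Kcnj8 (1.15) and Vtn (0.67) were higher and Rgs5 (-0.65) was lower in venous-marked cells. The part of these lists in the differences was not tested. With cells of 2 or more mural UMIs left out, only 2 libraries kept 10 cells of each kind, with 22 arterial-marked and 30 venous-marked cells in all. In these, Slc16a1 differed by 3.02 (adjusted p = 0.0022) and Cldn5 by 0.54 (adjusted p = 0.27).

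Between P21 and P60 the genes did not move together. In Endo cells of the 3 P21 and the 6 saline P60 libraries, 10599 genes were tested and 13.4% were called, 6.55% higher and 6.83% lower at P60. Of the 10 genes 4 were called: the pumps Abcb1a and Abcg2 and the glucose carrier Slc2a1 were higher at P60, and the monocarboxylate carrier Slc16a1 was lower. The median log2 difference was 0.44 over the 10 genes and 0.00029 over all genes tested. It was 0.34 over the 12 endothelial markers and 0.46 over the 10 mural markers, so that a median of this size was not particular to the 10 genes. In sums of a class, fewer cells of a kind and less RNA per cell cannot be told apart.

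Slc16a1 was at 406, 624 and 607 CPM in P21 libraries 1, 2 and 3, and at 145 to 298 CPM (median 188) in the saline P60 libraries. Every P21 library lay above every saline P60 library. The log2 difference, P60 minus P21, was -1.55 ± 0.20 (SE; adjusted p = 0.0005), or 2.92-fold lower at P60. The share of Endo cells with a UMI of Slc16a1, thinned to 2000 UMIs, was 54.9% ± 5.94 at P21 (SD, n = 3) and 27.7% ± 7.61 in saline P60 libraries (SD, n = 6).

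Abcb1a was at 381, 331 and 371 CPM in the P21 libraries and at 556 to 839 CPM (median 654) in the saline P60 libraries, again without overlap. In saline libraries 2, 3 and 5 it was at 803, 698 and 839 CPM, and in 7, 11 and 12 at 610, 575 and 556 CPM. It was 1.78-fold higher at P60 (log2 difference 0.84 ± 0.15 SE, adjusted p = 0.0017). Abcg2 was at 382, 563 and 594 CPM at P21 and at 769 to 1161 CPM (median 1008) at P60, and 1.79-fold higher (0.84 ± 0.18 SE, adjusted p = 0.0075). For both pumps and for Slc16a1 the call held in each alternative that was run.

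Slc2a1 was at 922, 1345 and 1342 CPM at P21 and at 1574 to 2311 CPM (median 1999) at P60. The groups did not overlap and the difference was 1.59-fold (log2 difference 0.67 ± 0.16 SE, adjusted p = 0.0133). This call rested on P21 library 1: without it the log2 difference was 0.50, under 1.5-fold, and it was 0.48 with cells given Endo by both class and cluster. Slco1a4 was at 784, 927 and 907 CPM at P21 and at 1092 to 1819 CPM (median 1304) at P60. In saline libraries 2, 3 and 5 it was at 1623, 1496 and 1819 CPM, and in 7, 11 and 12 at 1101, 1092 and 1111 CPM. It also did not overlap, and passed the adjusted p (0.0383) at 0.58 ± 0.18 SE, just under 1.5-fold, as did 17.5% of all genes. In all, 5 of the 10 genes had groups that did not overlap, against 21.4% of all genes tested.

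The other 5 genes did not pass. Slco1c1 differed by 0.13 ± 0.14 (95% confidence interval -0.18 to 0.44), which lies within 1.5-fold. Ocln differed by 0.41 ± 0.16 (adjusted p = 0.0848). Mfsd2a, at 215, 341 and 339 CPM at P21 and 176 to 265 CPM at P60, differed by -0.52 ± 0.17 (adjusted p = 0.0584). Slc7a5 was at 538 CPM in P21 library 1 but at 242 and 248 CPM in the other P21 libraries, and differed by 0.48 ± 0.27 (adjusted p = 0.25). Cldn5 was at 5621 CPM in P21 library 1 and at 1967 and 1668 CPM in the other P21 libraries, against 1090 to 2455 CPM at P60, and differed by -0.98 ± 0.42 (adjusted p = 0.149). P21 library 1 was the highest P21 library for Cldn5, Slc7a5 and Abcb1a and the lowest for the other 7 genes. Without it Mfsd2a (-0.72, adjusted p = 0.0041) and Slc7a5 (0.95, adjusted p = 0.0020) passed, and Cldn5 differed by -0.23 (adjusted p = 0.67).

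**Figure D4:**
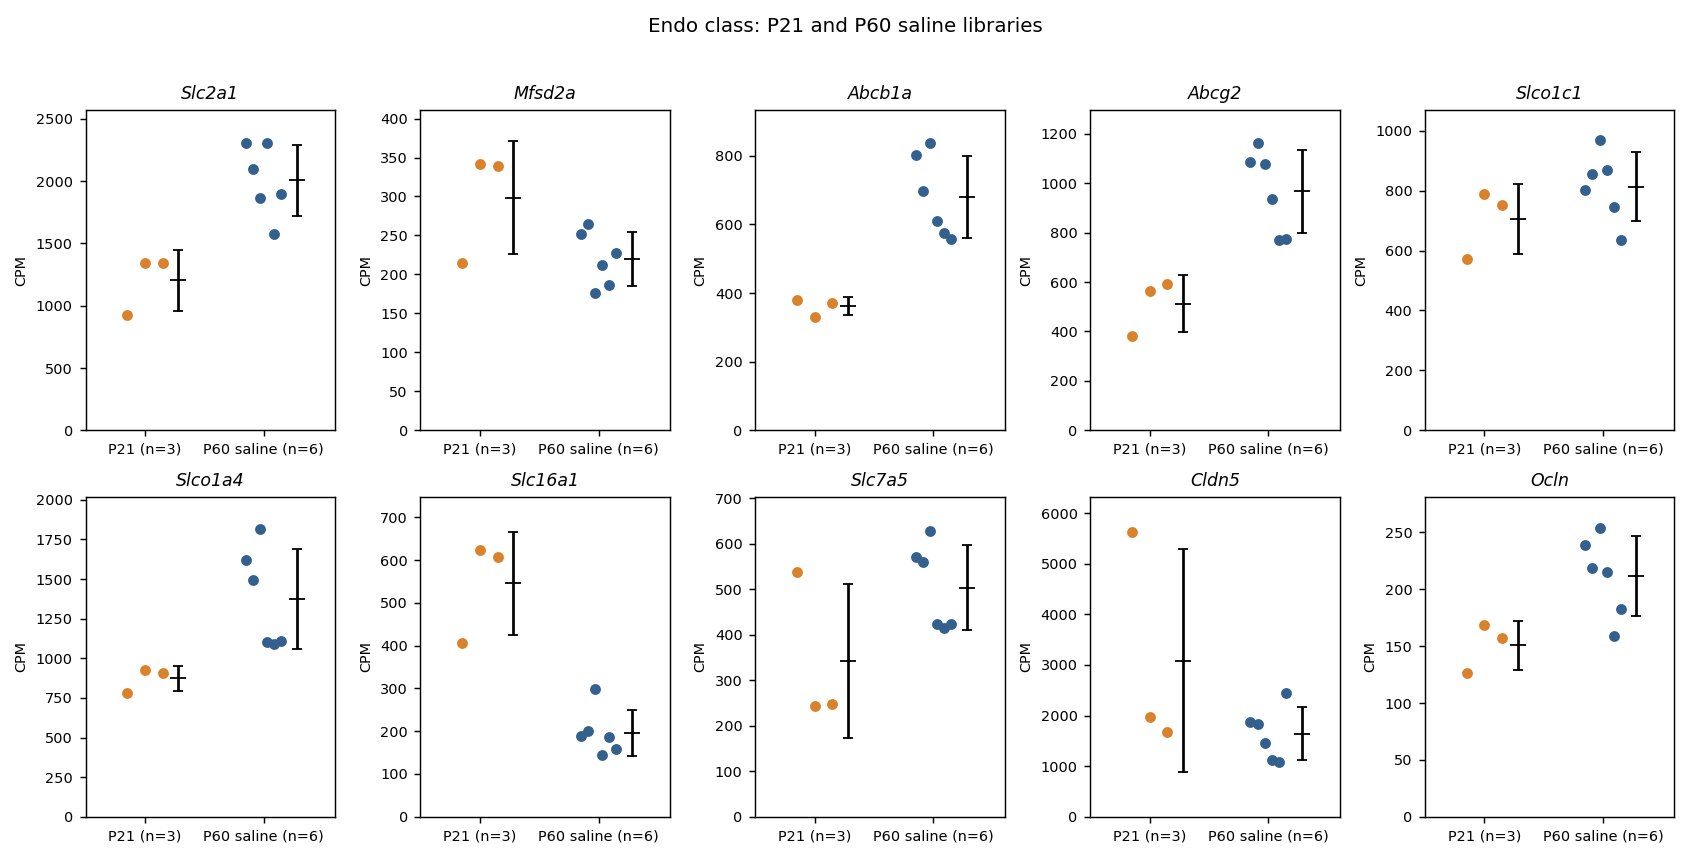
CPM of each gene in Endo cells of the 3 P21 and 6 saline P60 libraries; points are libraries and bars give mean and SD. P21 points lie wholly above P60 points for Slc16a1 and wholly below for Slc2a1, Abcb1a, Abcg2 and Slco1a4, and a single P21 library lies high for Cldn5 (5621 CPM) and Slc7a5 (538 CPM).

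The make-up of the class moved with age as well. The endothelial list summed to 10216 to 11322 CPM at P21 and 15635 to 17995 CPM in saline P60 libraries, with 4 of its 12 genes higher at P60 (Flt1, Podxl, Ly6a and Ly6c1) and Kdr lower. The mural list summed to 4951 to 6120 CPM at P21 and 6663 to 9361 CPM at P60, with 3 of 10 genes higher (Pdgfrb, Notch3 and Vtn). The red cell list summed to 93004 to 130065 CPM at P21 and 53465 to 88823 CPM at P60, with 5 of 5 genes lower. The arterial list summed to 286 to 293 CPM at P21 and 436 to 984 CPM at P60, with 4 of 7 tested genes higher (Gkn3, Sema3g, Bmx and Alpl) and 1 lower (Hey1). Arterial-marked cells had less Slc16a1 than venous-marked cells, as given above, and Slc16a1 was lower at P60. They also had less Abcb1a, Abcg2 and Slco1a4 (by 0.48, 0.52 and 0.56 on the log2 scale), which stood higher at P60 (by 0.84, 0.84 and 0.58). The venous list had 1 of 7 tested genes higher at P60 (Vcam1). The smooth muscle list summed to 629 to 664 CPM at P21 and 879 to 1496 CPM at P60, with 3 of 4 tested genes higher (Acta2, Myh11 and Tagln), and the fibroblast list to 128 to 153 and 40.3 to 87.5 CPM, with 3 of 4 lower (Col1a1, Col1a2 and Col3a1). Genes of dissociation stress summed to 16261 to 19781 CPM at P21 and 15036 to 23872 CPM at P60, with 3 of 12 higher (Zfp36, Hspa1a and Hspa1b). Of the markers of neurons, glia and microglia, 15 were tested, of which the astrocyte marker Gja1 was lower at P60 (-1.02, adjusted p = 0.0008) and the NF Oligo marker Bmp4 higher (1.10, adjusted p = 0.0074). The 4 excitatory markers had negative differences that did not pass (median -1.28), with sums of 147 to 667 CPM at P21 and 18.0 to 207 CPM at P60. The part of all these lists in the changes of the 10 genes was not tested beyond the following: with cells of 20 or more mural UMIs left out, or of 100 or more red cell UMIs, the 4 calls stood. With cells of 2 or more mural UMIs left out, Slc2a1 was at 0.66 with an adjusted p of 0.0505, and the other 3 were called.

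Other genes of the barrier were counted by the same test. Of 24 genes tested on the list of other transporters that also holds Car4, 1 was higher at P60 (Atp10a) and 6 were lower. The 6 were Slc7a1 and Slc38a2 (amino acids), Slc5a6 (biotin and pantothenate), Slc29a1 (nucleosides), Slc39a8 (zinc and manganese) and Abca1 (cholesterol export). They differed by -0.61 to -1.92 on the log2 scale. The median of this list was -0.10. Among receptors and vesicle genes, Cav2 (1.46) and Ptrf (0.95) were higher and Lrp8 (-1.12) was lower. Of 17 other junction genes, Pard3, Jam2 and Jam3 were higher, by 0.71 to 0.78, and 0 were lower (median 0.19). Of 20 genes of the Wnt pathway and of endothelial factors, 5 were higher and 0 lower (median 0.09), namely Reck (2.26) and Lrp5 (0.61) of Wnt reception, its target Axin2 (0.77), and the factors Sox17 (0.72) and Sox18 (2.17).

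Outside Endo, the genes that passed the filter gave 36 tests of age in 7 classes, of which 19 were called, 6 higher and 13 lower at P60. Over all genes tested in these classes, 7.89% were called higher and 9.22% lower. By class, called genes made 5.98% (NF Oligo), 7.63% (astrocytes), 14.1% (inhibitory neurons), 16.5% (oligodendrocytes), 18.1% (excitatory neurons), 20.4% (OPC) and 42.4% (microglia). Many of the lower calls moved with endothelial markers: in microglia Cldn5 differed by -4.88 and 5 of 5 markers tested were lower, and in astrocytes Cldn5 differed by -3.60 and 5 of 7 markers were lower. At P21, 64 cells of other classes carried a cluster name of Endo, 33 of them microglia. With these cells left out, 9 of 28 tests were called, 7 higher and 2 lower (of all genes 8% and 9.28%), and 0 of 4 markers in microglia and 0 of 3 in astrocytes. Cldn5 then no longer passed the filter on low counts in microglia or astrocytes. Its differences there had entered the test through the P21 libraries, where it was high, and are a description.

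Mfsd2a in OPC had the largest fitted rise of these 9, on few P21 UMIs. It stood at 89.4 and 13.8 CPM in the 2 P21 libraries with at least 10 OPC, from 18 UMIs and 1 UMI, and at 166 to 404 CPM in 5 saline P60 libraries (log2 difference 2.14 ± 0.49 SE, adjusted p = 0.0113). Abcg2 in OPC rose by 1.45 ± 0.48 (adjusted p = 0.0447), from 6 and 2 UMIs at P21. With so few P21 UMIs, both genes passed the filter on low counts through the P60 libraries, where they are high. These 2 calls are therefore a description of the counts. Each gene was above the highest endothelial marker in 1 of the 2 P21 libraries. In astrocytes, with the cells of Endo clusters left out, Slc2a1 rose by 0.95 ± 0.26 (adjusted p = 0.0468) and Slco1c1 by 1.01 ± 0.26 (adjusted p = 0.04). With them kept, Slc2a1 differed by 0.18 ± 0.23, and it was then above the highest endothelial marker in 1 of 3 P21 libraries.

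In inhibitory neurons Slc7a5 (1.09 ± 0.29, adjusted p = 0.0143), Abcg2 (1.14 ± 0.33, adjusted p = 0.0204) and Slc2a1 (0.86 ± 0.28, adjusted p = 0.0389) were higher at P60. Against the endothelial markers of the same library, Abcg2 and Slc2a1 were above the highest marker in 2 of 12 P60 and 0 of 3 P21 libraries each. Slc7a5 was above it in 11 of 12 P60 libraries but in 0 of 3 P21 libraries, where it stood at 4.36% of its Endo level and the highest marker at 4.81%. The median marker stood at 0.642% at P21 and 0.49% at P60, below all 3 genes. The part of endothelial RNA in these values was not tested. In excitatory neurons Slc16a1 was lower at P60 (-1.41 ± 0.16, adjusted p = 5.86e-05). It stood at 7.0 to 9.8 CPM in the 3 P21 libraries and at 2.2 to 3.7 CPM in the saline P60 libraries. These levels were 1.62% of the Endo level at P21 and 1.81% at P60. They were above the highest endothelial marker (6.87% and 5.29%) in 0 of 3 and 0 of 12 libraries, but well above the median marker (0.442% and 0.138%), and the part of endothelial RNA in them was not tested. Cldn5 was lower as well (-2.02 ± 0.58, adjusted p = 0.0232), with 3 of 9 endothelial markers lower.

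Cocaine self-administration was compared with saline at each time point in a single fit of the 12 P60 libraries. None of the 10 genes was called in Endo at any time point or over all of them. Saline and cocaine libraries overlapped for every gene over all time points, though not for every gene within a time point. In simulated data, the comparison at 15 days called 1 of 50 genes changed 1.5-fold, 12 of 50 changed 2-fold and 40 of 50 changed 3-fold. The simulation gave every gene the same spread between libraries. The spread of the 10 genes differed, so the simulation sets no limit for a single gene. At 15 days the 95% confidence intervals lay within 1.5-fold for Slc2a1, Abcb1a, Abcg2, Slco1c1, Slc7a5 and Ocln. They were wider for Mfsd2a (-0.10 to 0.80 on the log2 scale), Slco1a4 (-0.47 to 0.61), Slc16a1 (-1.06 to 1.04) and Cldn5 (-0.09 to 2.28). The lack of a call does not exclude changes over 1.5-fold in the latter genes, and the other time points had as few libraries. Of 10063 genes tested, 0 (0%) were called during maintenance, 2 (0.0199%: Cdkn1a and Hbegf) at 48 h, 14 (0.139%) at 15 days, and 0 over all time points. These counts rested on single libraries: with 1 left out they ran from 0 to 22 at 48 h (22 without library 6, 0 without library 8) and from 0 to 133 at 15 days (133 without library 12, 0 without library 11 or library 9). At an unadjusted p of 0.05, 448 genes (4.45%) passed during maintenance and 595 over all time points.

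Of the 10 genes the junction gene Cldn5 had the largest fitted difference over all time points, at 48 h and at 15 days, while during maintenance Slc16a1 (0.52) exceeded it (0.45). During maintenance it was at 1744 and 3188 CPM in the cocaine libraries and 1864 and 1838 CPM in the saline libraries. At 48 h it was at 1745 and 2186 CPM against 1461 and 1121 CPM, and at 15 days at 4228 and 3429 CPM against 1090 and 2455 CPM. Cocaine libraries lay above saline libraries at 48 h and 15 days but not during maintenance. With 2 libraries against 2, such a lack of overlap in either direction was found for 32.5% of all genes tested at 48 h, 32.6% at 15 days and 31.7% during maintenance, and for 2, 4 and 4 of the 10 genes. Over all time points the log2 difference was 0.74 ± 0.28 SE (95% confidence interval 0.06 to 1.43, adjusted p = 0.82), and it did not pass. At 15 days it was 1.09 ± 0.49 (adjusted p = 1.00).

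Mfsd2a differed by 0.35 ± 0.13 SE over all time points (interval 0.08 to 0.62, adjusted p = 0.77). Its levels were 241 and 322 CPM with cocaine and 251 and 265 CPM with saline during maintenance, 221 and 311 CPM against 176 and 212 CPM at 48 h, and 291 and 235 CPM against 186 and 227 CPM at 15 days. The libraries overlapped during maintenance and not at the later time points, and the adjusted p did not pass at any of them.

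For the other 8 genes the differences over all time points lay between -0.03 (Abcb1a) and 0.14 (Ocln). The 95% confidence intervals lay within 1.5-fold for 7 of them: Slc2a1 (-0.19 to 0.37), Abcb1a (-0.22 to 0.15), Abcg2 (-0.13 to 0.30), Slco1c1 (-0.10 to 0.23), Slco1a4 (-0.29 to 0.34), Slc7a5 (-0.16 to 0.23) and Ocln (-0.06 to 0.33). For Slc16a1 the interval was wider (-0.58 to 0.67). These intervals bound a difference over all time points and not at 1 of them. Differences between time points were not detected: in the F test over the 3 differences 0 of 10063 genes passed (466 at an unadjusted p of 0.05), and the lowest unadjusted p among the 10 genes was 0.179, for Slc2a1.

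**Figure D5:**
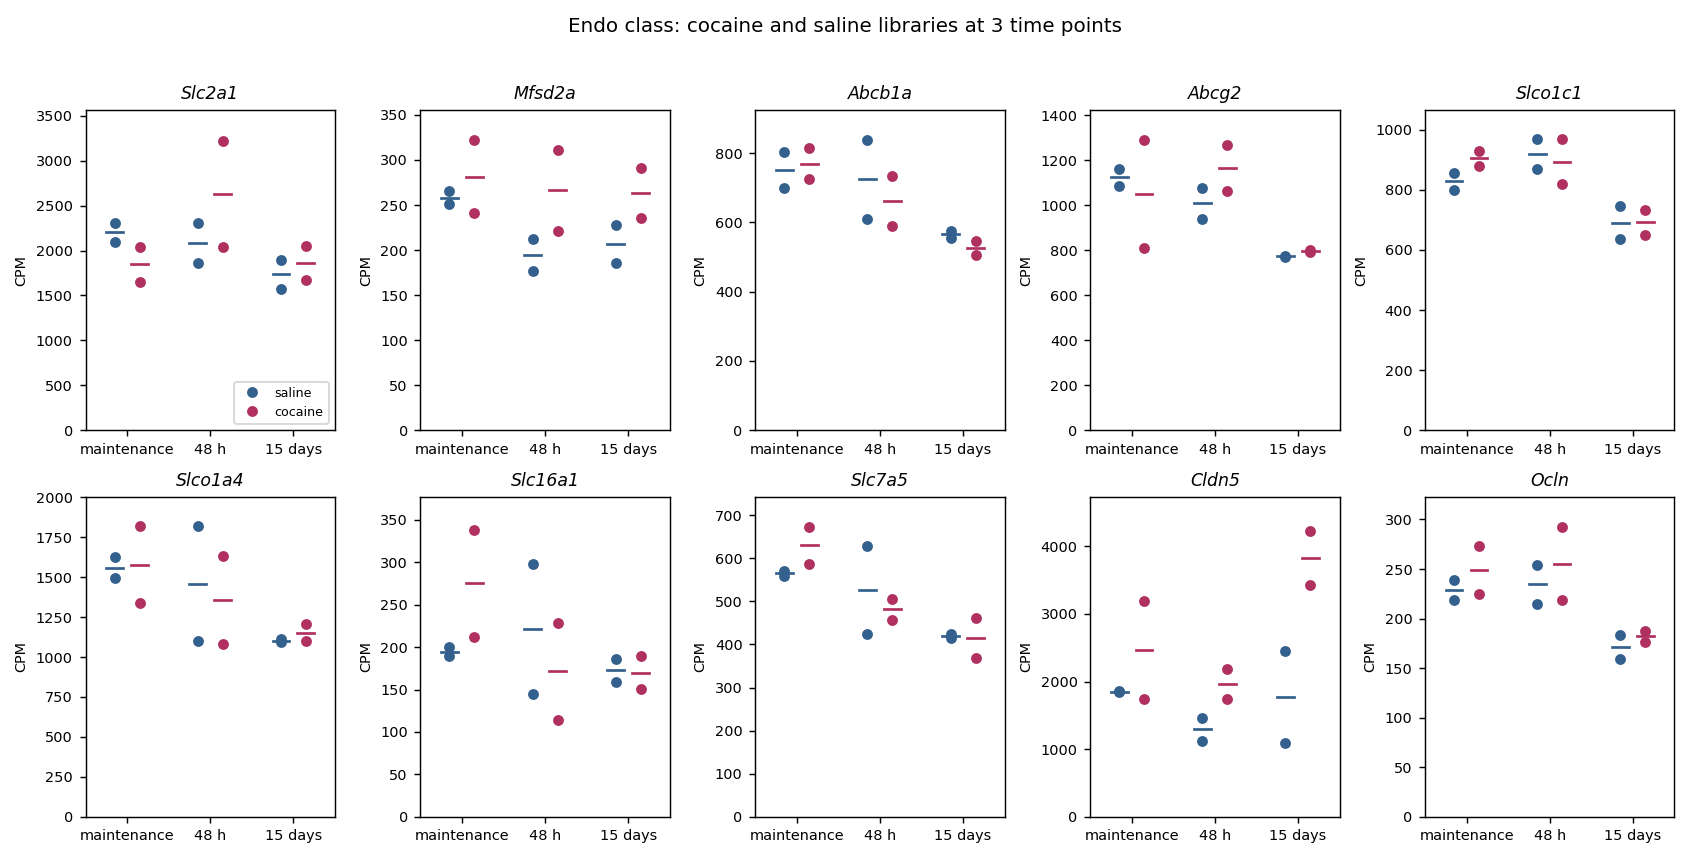
CPM of each gene in Endo cells of the 12 P60 libraries by time point and treatment; each point is a library. Cocaine and saline overlap for every gene over the 3 time points, and library 8 lies high for Slc2a1 at 3216 CPM.

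Library 8 carried the highest Slc2a1 level, 3216 CPM, against 1574 to 2311 CPM in the other P60 libraries, together with the highest Ly6a (6952 CPM) and Ly6c1 (8113 CPM) and a venous list sum of 5967 CPM against 674 to 1391 CPM elsewhere. Lcn2 carried that sum: without it the venous list stood at 1137 CPM in library 8 and at 672 to 1262 CPM in the others. Library 8 held 51 of the 240 cells of Endo_12, the cluster led by Lcn2, but library 12 held 58 and library 10 held 42. The venous list summed to 1226 CPM with Lcn2 and 1149 CPM without it in library 12, and to 1391 and 1262 CPM in library 10. At 48 h Slc2a1 differed by 0.40 ± 0.22 (adjusted p = 0.90). The part of this library in other differences at 48 h was not tested for single genes beyond leaving it out, under which none of the 10 genes was called.

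Outside Endo no member was called for cocaine either. In excitatory and inhibitory neurons, oligodendrocytes and microglia, 0 of 63 tests over the 3 time points were called, against 0.179% of all genes tested, and 11 (17.5%) had an unadjusted p under 0.05, as did 5.19% of all genes tested. The 11 included 4 of the 6 tests in inhibitory neurons at 15 days (Slc2a1, Abcg2, Slco1a4 and Slco1c1, all lower with cocaine). The lowest adjusted p was 0.146, for Slc2a1 in inhibitory neurons at 15 days. In the same class and at the same time point, 3 of 5 endothelial markers tested were lower with cocaine (Flt1, Ly6a and Ly6c1, lowest adjusted p = 0.000113), and their part in the values of the 4 genes was not tested. In astrocytes, OPC and NF Oligo, which had fewer libraries, 0 of 20 tests were called at 48 h and 15 days, against 0.0236% of all genes, and 4 (20%) had an unadjusted p under 0.05, against 3.96% of all genes. At 15 days these were Slco1c1 in astrocytes (-0.44) and Cldn5 (2.61) and Slc2a1 (1.51) in OPC. At 48 h it was Mfsd2a in NF Oligo (0.96). Those in OPC rest on few UMIs: 10 and 12 of Cldn5 in cocaine libraries 9 and 10, against 5 and 2 in saline libraries 11 and 12. For Slc2a1 they were 8 and 13 against 3 and 12. Library 10 held 20 OPC and had the highest Cldn5 (137 CPM), Slc2a1 (148) and Slco1a4 (126). Cldn5 passed the filter on low counts through the libraries where it is high. The OPC values are therefore a description, and the part of endothelial RNA in them was not tested.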

How the data were processed

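The authors captured papain-dissociated PFC cells with 10X Chromium, aligned reads to mm9 with Cell Ranger and deposited raw UMI counts per library, without normalization. A deposited table gave the class and cluster of each retained cell, and its mitochondrial UMIs as a fraction from 0 to 1; clustering was done with Seurat 2.1.0, and no further doublet call was made here. The joined tables hold the same counts and were used only to check them.

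For each library and class, UMIs were added up over cells. Genes of mitochondria (13) and of ribosomal proteins (143) were dropped, as were libraries with fewer than 10 cells of a class. CPM were computed over the remaining genes. Tests were robust two-sided quasi-likelihood tests of edgeR 4.0.16 (R 4.3.3) after filterByExpr and TMM scaling. A call needed a change over 1.5-fold and an adjusted p under 0.05 (Benjamini-Hochberg, all genes tested). These p-values replace the study's tests over cells and measure the spread between libraries, each a pool of mice at P60. Intervals are 95% confidence intervals from the same fits, and intervals and shares of cells cover these libraries only. Steps were tested on simulated data. DESeq2 1.42.0, other scalings, filters, sets of cells and leaving out each library were alternatives, of which leaving out cells by mural UMIs at a minimum of 20, by red cell UMIs or by cluster name, the replicate block, the addition of Darc and clusters without red cell genes were chosen after seeing the data. Ends of transcripts were compared with blastn 2.17.0+.

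Named were all 10 members, the called genes of 4 fixed lists of barrier genes with up to 4 others of a list, and the genes most like each member. The members and lists were chosen with earlier results of these data known. A gene of the list of receptors and vesicle genes is not reported here, and the counts of that list between ages are left out with it.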

Additional observations from a re-analysis of the deposited data

Results flagged for a closer look

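The levels of the 10 genes in Endo cells of the 6 saline and of the 6 cocaine P60 libraries were screened for a library far from the others with Dixon's criterion, 20 groups in all, and chance marks about 1 group in 20. Slc2a1 in library 8 (cocaine, 48 h) was at 3216 CPM, with the next cocaine library at 2050 CPM and the lowest at 1654 CPM. The same library had the highest Lcn2 level, 4830 CPM. Slc16a1 in library 5 (saline, 48 h) was at 298 CPM, with the next saline library at 200.0 CPM and the lowest at 145 CPM. Neither library changed the result of the cocaine comparisons for the 10 genes when left out, and the causes were not tested.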

How the results depend on the processing

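Sample numbers in the titles name libraries, and cocaine and saline libraries share none, so no paired fit was made there. Numbers 2 and 3 occur both at P21 and among saline P60 libraries. The deviations of same-numbered libraries from their group means correlated at 0.02 and 0.30 over genes. Pairs of different number ran from -0.39 (P21 library 3 with P60 library 12) to 0.41 (P21 library 1 with P60 library 12). The numbers were not taken to pair libraries. With the 4 libraries of numbers 2 and 3 alone and the number as a replicate block, 2378 genes were called between ages, and 6 of the 10 genes (Slco1a4 and Slc7a5 in addition). Venous-marked and arterial-marked cells were compared within each library in the reported fit. No value of a member changed direction in a called result under any alternative. In the comparison of ages, 203 of 220 alternative values of the 10 genes kept their side of the threshold, 3 lost a call (all Slc2a1) and 14 gained one (9 of them Slco1a4, 2 Mfsd2a and 3 Slc7a5). In the cocaine comparisons all alternative values stayed uncalled, 200 at maintenance, 210 at 48 h, 200 at 15 days and 180 over all time points. Leaving out cells with 2 or more mural UMIs gave 330 genes called between ages, 1 at 48 h, 2 at 15 days (2 also with a minimum of 20) and 48 between venous-marked and arterial-marked cells, where only 2 libraries kept enough cells, with fewer genes tested. Without the filter on low counts, 7, 29 and 103 genes were called at maintenance, 48 h and 15 days, 17 over all time points, 37 between time points and 1235 between marked cells. With only the 4 libraries of a time point, 8 were called at 48 h and 0 at 15 days. At 15 days DESeq2 called 7 and its size factors 24. Leaving out each library in turn gave 961 to 1553 genes between ages, 0 to 2 at maintenance, 0 to 22 at 48 h (22 without library 6, 0 without library 8), 0 to 133 at 15 days (133 without library 12), 0 to 26 over all time points, 0 to 38 between time points and 278 to 377 between marked cells; a library left alone in its group was assumed to vary like the others. Between marked cells the number of the 10 genes called was 7 without the filter, 5 with 3 or more marker UMIs, 7 without the fold cutoff (645 genes) and 2 to 4 with a library left out; between ages it was 4 to 5. Leaving cells of Endo clusters out of the other classes left 9 member calls for age. With mitochondrial and ribosomal genes kept, Slco1c1 in Endo was at 704 CPM. Where a value moved, the cause was not tested. Slc16a1, Mfsd2a and Ocln, under 250 CPM at P60, rest on the fewest UMIs.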

Other observations

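Some of the 10 genes differed by library number. In Endo cells, Slco1a4 was at 1337 to 1819 CPM in libraries 1 to 6 and at 1083 to 1204 CPM in libraries 7 to 12, Abcb1a at 698 to 839 and 506 to 610 CPM, and Slc7a5 at 505 to 673 and 369 to 462 CPM. Each range holds cocaine and saline libraries, and the 48 h group of each treatment has 1 library on either side. The saline libraries compared with P21 also lie on both sides, so that the size of an age difference in these genes depends on which of them are taken. This order was noticed after the values were seen and was not tested, the labels name no batch, and the maintenance and 15-day libraries lie wholly on opposite sides, so that library number and these time points cannot be told apart.

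The Endo cluster led by Lcn2, Lrg1 and Vcam1 (Endo_12) had Mfsd2a at 136 CPM, against 351 CPM in Endo_9, and its number of cells ranged from 2 in library 2 to 58 in library 12. Endo_1, led by the arterial genes Bmx and Gkn3, had Slc2a1 at 2526 CPM, close to the highest cluster, and Slc16a1 at 107 CPM.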
